A study of Mus musculus with 8 samples.

Results

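In lung metastases of the 4T1 mouse mammary tumor model that carry the label TVI, 978 CpG sites carried partial to high DNA methylation. The same sites had low methylation in the lung metastases labelled MFP, with a mean of at most 10% at 529 of them. The 978 sites were chosen from the 136069 sites of the deposited table by their measured values. At each of them the 3 MFP metastases averaged at most 20% methylation, and the lowest of the 3 TVI metastases exceeded the highest MFP metastasis by at least 20 percentage points. They made up 0.719% of all sites and 3.19% of the 30650 sites with an MFP metastasis mean of at most 20%, called low sites below. The choice fixed the low MFP values and the high TVI values, so these are given as a description without a test, while the primary tumors and the position of the sites played no part in it.

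Methylation of the cytosine in a CpG is a chemical mark that is copied when cells divide. Most CpGs of mammalian genomes carry it, and the CpG-rich stretches at many gene starts, called CpG islands, usually lack it. Tumor cells often gain methylation at island edges and promoters, where the mark is known to accompany gene silencing.

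All samples derived from the 4T1 mammary tumor cell line of the BALB/c mouse strain, and the labels list no gene change or drug for any of them. They were 3 lung metastases labelled TVI, 3 lung metastases labelled MFP and 2 mammary tumors labelled MFP, with the abbreviations kept as the labels give them. No mammary tumor was labelled TVI, so organ and label cannot be told apart between TVI metastases and tumors. Nothing in the labels ties samples to animals, and no age is given, so the p-values below reflect spread among samples that may be technical. Each value is the percentage of bisulfite sequencing calls at a site that were methylated. Read counts are not part of the table used here, and the depth is unknown. The samples are bulk tissue, in which a larger share of cells with methylated copies and more methylation per cell cannot be told apart.

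Of the 978 sites, 8 lay inside the promoter window of a gene whose start could be placed on the deposited coordinates, and these windows show which CpGs differed and how CpGs are spaced there. The windows run from 250 bases before to 50 bases after the start, 5′ to 3′ on the gene's strand, as RefSeq gives them for GRCm38.p6. The CpGs in capitals are the chosen sites. Fzd1 encodes Frizzled-1, a receptor for Wnt proteins, and its window is chr5:4758167-4758466 on the minus strand. Tjp3 encodes the tight junction scaffold ZO-3, with its window at chr10:81291218-81291517 on the minus strand. Gm52569 at chr2:167221106-167221405 and Gm35930 at chr8:123648042-123648341, both on the plus strand, are predicted gene models. Gm52569 lies between Ptgis and B4galt5 in RefSeq's gene order, and Gm35930 between Gas8 and Rhou.
Fzd1: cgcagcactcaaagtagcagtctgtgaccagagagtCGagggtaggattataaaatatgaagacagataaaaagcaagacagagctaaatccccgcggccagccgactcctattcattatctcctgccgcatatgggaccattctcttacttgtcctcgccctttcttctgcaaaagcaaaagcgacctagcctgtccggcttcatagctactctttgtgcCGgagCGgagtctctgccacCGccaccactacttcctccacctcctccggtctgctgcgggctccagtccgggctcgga
Tjp3: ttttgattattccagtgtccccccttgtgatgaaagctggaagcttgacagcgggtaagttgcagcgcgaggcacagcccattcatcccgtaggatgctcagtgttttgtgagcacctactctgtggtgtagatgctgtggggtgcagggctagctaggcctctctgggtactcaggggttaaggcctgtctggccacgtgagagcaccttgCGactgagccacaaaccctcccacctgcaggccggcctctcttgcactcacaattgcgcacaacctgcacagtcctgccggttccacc
Gm52569: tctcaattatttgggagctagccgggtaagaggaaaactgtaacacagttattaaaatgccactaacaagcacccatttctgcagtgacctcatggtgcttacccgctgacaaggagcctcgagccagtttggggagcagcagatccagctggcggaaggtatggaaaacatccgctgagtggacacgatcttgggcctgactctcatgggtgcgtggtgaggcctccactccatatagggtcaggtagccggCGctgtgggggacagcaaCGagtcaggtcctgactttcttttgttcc
Gm35930: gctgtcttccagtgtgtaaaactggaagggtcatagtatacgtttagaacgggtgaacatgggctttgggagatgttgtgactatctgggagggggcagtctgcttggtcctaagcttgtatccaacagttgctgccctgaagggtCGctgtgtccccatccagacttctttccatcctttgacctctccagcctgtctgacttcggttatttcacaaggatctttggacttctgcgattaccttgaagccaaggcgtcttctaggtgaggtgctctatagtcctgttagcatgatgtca

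Counting from 1 at the 5′ end, the chosen CpGs began at bases 37, 222, 227 and 242 in Fzd1, 213 in Tjp3, 254 and 272 in Gm52569, and 147 in Gm35930. The Fzd1 window held 16 CpGs, of which 12 were covered. The other windows held 9, 10 and 6 CpGs in Tjp3, Gm52569 and Gm35930. The 4 windows with a chosen site had a median of 9.5 CpGs, against 18 in the 254 placed windows without one, where the number ran from 6 to 50. Only windows with at least 6 covered CpGs could be placed.

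Mean methylation over the 978 sites was 47.1%, 54.7% and 52.4% in the TVI metastases, 9.69%, 9.99% and 10.1% in the MFP metastases, and 11.1% and 11.3% in the primary tumors. The group means were 51.4% ± 3.88 for TVI metastases (SD, n = 3), 9.94% ± 0.234 for MFP metastases (SD, n = 3) and 11.2% ± 0.172 for tumors (SD, n = 2). The 3 TVI metastases lay far above the 5 other samples, which lay close together. At the 29672 low sites that were not chosen, the group means were 4.60% in TVI metastases, 3.29% in MFP metastases and 3.16% in tumors. TVI means of single chosen sites ran from 23.7% to 91.1% with a median of 50.1%. Most sites were partly methylated in TVI metastases: 291 sites averaged 40 to 50% and 268 averaged 50 to 60%, while 29 reached 80% or more. A further 81 averaged 70 to 80%, and 23 were under 30%. The median SD of a site between replicates was 5.19 points in TVI metastases, 2.20 points in MFP metastases and 1.98 points in tumors.

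**Figure D1:**
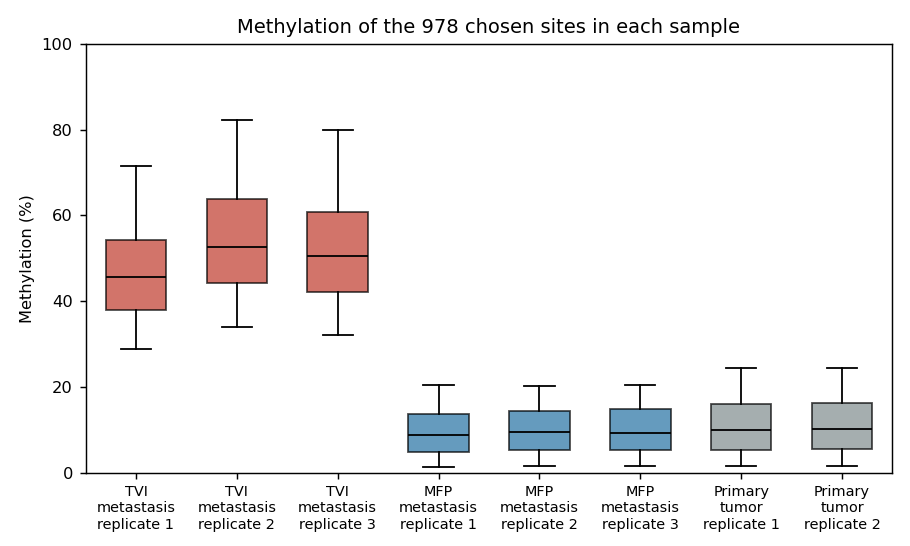
Methylation in percent (vertical axis) of the 978 chosen sites in each of the 8 samples. Boxes span the quartiles with the median as a line and whiskers reach the 5th and 95th percentiles. The medians are 45.7%, 52.6% and 50.5% in TVI metastases, 8.89%, 9.39% and 9.31% in MFP metastases and 9.88% and 10.1% in primary tumors.

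TVI replicate 1 was the lowest of the 3 TVI metastases at 704 of the 978 sites (72.0%) and the highest at 82 (8.38%). Replicate 2 was the highest at 588 sites and replicate 3 at 308. A like order appeared at the 2187 partly methylated sites with the same gap, where replicate 1 was lowest at 67.8%. At 976 highly methylated sites that were at least 20 points lower in TVI metastases, replicate 1 was instead the highest at 74.5%, with a mean of 53.9% against 45.2% and 47.9% in replicates 2 and 3. Over the 8639 sites with a TVI mean of 35 to 65%, replicate 1 was lowest at 34.3% and highest at 39.1%. At both gaining and losing sites TVI replicate 1 thus stood nearest to the MFP level, and the cause was not tested.

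Sites chosen without a given replicate showed what that replicate did where it had not been used. Without TVI replicate 1 the rule gave 1221 sites, and replicate 1 had a median of 42.3% there. It lay above the highest MFP metastasis at 99.8% of them and by at least 20 points at 80.1%. Without TVI replicate 2 there were 1024 sites, and replicate 2 kept the 20 point gap at 95.5%, with a median of 51.8%. The 1046 sites chosen without TVI replicate 3 had a median of 49.6% in replicate 3, and 93.5% kept the gap. At low sites not chosen in this way, the left-out TVI metastasis lay above the highest MFP metastasis at 32.5% to 33.0% and by at least 20 points at 0.632% to 1.85%. Leaving out an MFP metastasis gave 1058, 1075 and 1086 sites, at which the left-out sample kept the gap at 93.2%, 92.4% and 91.8%. Each left-out TVI replicate thus kept the gap at most sites chosen without it, least often in TVI replicate 1, which also had the lowest median. The other samples of the rule still chose these sites, and the samples may be technical, so this is a description.

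The primary tumors, which the rule did not use, were also low at most of the chosen sites, though less often than at other low sites. Both tumors were at most 20% at 794 of the 978 sites (81.2%), against 97.7% of the low sites that were not chosen, and the median of the tumor means was 10.2%. The tumor mean lay within 5 points of the MFP metastasis mean at 775 sites (79.2%), against 96.0% of the low sites that were not chosen, and nearer to the TVI mean at 3. The 2 sets differed in starting level, with 21.3% of chosen sites and 83.0% of the others at 0 to 5% in MFP metastases. Among sites at that level the median tumor mean was 3.51% for chosen sites and 1.37% for the others. Among sites at 15 to 20% in MFP metastases it was 17.9% and 16.1%. Both tumors lay below the lowest TVI metastasis at all 978 sites, where the lowest TVI value exceeded both tumors at 26.4% of all sites. They lay at least 20 points below it at 875 (89.5%), against 0.458% of the low sites that were not chosen. By limma over all 8 samples, 977 of the 978 sites were higher in TVI metastases than in primary tumors at an adjusted p under 0.05, with 11.4% of all tested sites called higher and 5.24% called lower. This background split of 15428 higher and 7124 lower sites became 10073 and 9688 after quantile normalization, under which 970 of the chosen sites were called higher. The median difference was 38.5 points over the chosen sites and 0.686 points over all tested sites. The TVI values in this comparison had been chosen as high, so it adds a measurement only on the tumor side. For TVI against MFP metastases, the contrast of the rule itself, the same fit called 978 sites higher, beside 10.4% of all tested sites called higher and 6.53% called lower, and nothing is read from that count. Over all sites that split was 14120 higher and 8881 lower, and 11542 and 11017 after quantile normalization.

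Few sites of the whole table were called between MFP metastases and primary tumors, and none of the chosen ones. The limma fit called 0 of the 978 sites at an adjusted p under 0.05, with 0.0427% of all tested sites called higher and 0.00368% called lower in MFP metastases. Beside such small shares, nothing is read from the count of 0. At an unadjusted p under 0.05 there were 13 higher and 89 lower, beside 11766 of the 135914 tested sites in either direction. Under 3 other settings limma called 1, 2 and 4 of the sites, all lower in MFP metastases. Over all tested sites the same settings called 21, 137 and 472 higher and 7, 18 and 54 lower. The median difference, MFP metastases minus tumors, was -0.57 points over the chosen sites and 0.392 points over all tested sites. Both tumors lay above the highest MFP metastasis at 224 sites (22.9%), against 8.99% of low sites not chosen and 8.11% of all sites. They lay below the lowest at 93 (9.51%), about the 9.60% of low sites not chosen, with 14.5% of all sites. MFP values had been chosen as low, and the part of that choice in the lean toward higher tumor values was not tested.

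Values of single sites show the size of the difference. At chromosome 5 position 141083023, the site with the widest gap, methylation was 83.8%, 97.4% and 92.1% in TVI metastases, 10.3%, 10.3% and 6.85% in MFP metastases, and 19.1% and 9.43% in tumors. Nearly every call was methylated in TVI replicate 2, and the highest of the 5 other samples was a tumor. The site exceeded the tumors by 76.8 points (SE 4.74, limma adjusted p = 4.56e-06). TVI values had been chosen as high, so p-values of TVI metastases against tumors at single chosen sites, here and below, are a description. At chromosome 5 position 145664902 the values were 82.3%, 90.4% and 87.9% in TVI metastases, 3.50%, 8.90% and 4.90% in MFP metastases, and 12.9% and 20.8% in tumors. Both tumors there lay above all 3 MFP metastases, with a difference of -11.07 points between MFP metastases and tumors that did not pass (limma adjusted p = 0.448). Chromosome 12 position 8818204 was almost free of methylation outside the TVI group. It had 71.4%, 80.9% and 73.6% in TVI metastases, 1.92%, 1.64% and 0% in MFP metastases, and 2.56% and 3.33% in tumors.

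Other sites with the widest gaps lay on chromosomes 1, 2, 5, 10, 11 and 12. Chromosome 10 position 80400051 had 77.6%, 94.5% and 88.5% in TVI metastases, 7.73%, 3.09% and 8.85% in MFP metastases, and 10.97% and 14.5% in tumors. It lay 7.21 kb past the start of Gadd45b, a stress-induced gene whose protein has been linked to DNA demethylation, as the nearest start that could be placed. Chromosome 11 position 49462142 had 72.4%, 85.7% and 81.9% in TVI metastases, 4.29%, 10.4% and 6% in MFP metastases, and 2.20% and 3.92% in tumors. There the tumors were the lowest samples, and the difference from TVI metastases was 76.9 points (SE 4.06, limma adjusted p = 3.41e-06). Chromosome 5 position 139570122 averaged 78.4% ± 8.56 (SD) in the 3 TVI metastases, 6.72% ± 0.470 in the 3 MFP metastases and 7.17% ± 4.10 in the 2 tumors. The nearest start that could be placed was 99.9 kb away, at -99.9 kb from that of Pdgfa, which encodes a chain of platelet-derived growth factor. A nearer gene whose start was not placed would not be seen. In none of the 12 sites named for the widest gap did a TVI metastasis fall below 69.0% or another sample exceed 22.3%.

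At a minority of the chosen sites the tumor mean was above the 20% that bounded the MFP metastasis mean. It was over 20% at 113 of the 978 sites (11.6%), against 352 of the 29672 low sites not chosen (1.19%). These sets differed in starting level, with 22.8% of chosen sites and 4.30% of the others at 15 to 20% in MFP metastases. At none of the 113 did the difference between MFP metastases and tumors pass the test. That test called only 0.0427% of all tested sites higher and 0.00368% lower in MFP metastases, so nothing is read from this. Chromosome 9 position 50693371 had the highest tumor mean, with 74.3%, 79.8% and 77.1% in TVI metastases, 8.20%, 13.3% and 6.76% in MFP metastases, and 42.9% and 33.3% in tumors. The tumors stood between the metastasis groups there. MFP metastases differed from tumors by -28.7 points (SE 4.25), which narrowly missed the threshold (limma adjusted p = 0.0554). On chromosome 1, position 93844111 had 89.9%, 89.0% and 91.2% in TVI metastases, 19.1%, 19.2% and 18.9% in MFP metastases, and 35.4% and 36.7% in tumors. Samples of a group lay close together there, and the 3 groups did not overlap. The difference between MFP metastases and tumors at that site was -16.95 points and did not pass (limma adjusted p = 0.187). At chromosome 19 position 3339431 the tumors differed from each other, at 43.4% and 27.4%, with 49.3%, 50% and 50.7% in TVI metastases and 10.6%, 17.6% and 17.9% in MFP metastases.

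The single chosen site not called between TVI metastases and tumors was chromosome 19 position 3668669. It had 46.2%, 48.1% and 46.7% in TVI metastases, 23.2%, 19.4% and 16.5% in MFP metastases, and 23.3% and 41.5% in tumors. The tumor replicates lay far apart, with the higher near the TVI values (limma adjusted p = 0.0552).

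The threshold cut through a continuous range of gaps. Among low sites, 603 had a gap of 10 to 15 points between the lowest TVI and the highest MFP metastasis and 427 one of 15 to 20 points. Of the chosen sites, 248 had a gap of 20 to 25 points, 220 one of 25 to 30 points, 274 one of 30 to 40 points, 145 one of 40 to 50 points, 61 one of 50 to 60 points and 30 a wider one. Just inside lay chromosome 2 position 26359494 (20 points), chromosome 11 position 5142248 (20.02 points) and chromosome 2 position 157248193 (20.03 points). Just outside lay chromosome 5 position 137182188 (19.98 points), chromosome 17 position 35838611 (19.97 points) and chromosome 5 position 137815115 (19.94 points).

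Within the low sites, the chosen ones were rare among CpGs at 0 to 5% in MFP metastases and commoner among those at 5 to 20%. Of sites averaging 0 to 5% in MFP metastases 0.837% were chosen, against 11.7% at 5 to 10%, 14.4% at 10 to 15% and 14.9% at 15 to 20%. The chosen sites also sat where covered CpGs were sparser. The median number of other covered sites within 250 bp was 6 around chosen sites, 13 around low sites not chosen and 6 around the partly methylated sites with the same gap. At least 20 other sites were present around 1.64% of chosen sites, against 29.5% of low sites not chosen. In each of the 4 level classes the median was 6 around chosen sites, and 14, 8, 8 and 8 around the others from the lowest to the highest class.

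Chosen sites lay close to methylated DNA. Their median distance to the nearest site with at least 50% methylation in the tumors was 138.5 bp, against 605 bp for low sites not chosen. Such a site lay within 100 bp of 39.4% of chosen sites and 10% of the others. The tumor values used here had no part in the choice. In the class with 0 to 5% in MFP metastases the median distances were 290.5 bp for chosen sites and 702 bp for the others. In the class with 15 to 20% they were 90 bp and 143 bp. Where another covered site lay within 100 bp, the nearest one was itself at most 20% methylated in tumors for 52.4% of chosen sites, against 90.1% of the others. In all 4 classes of starting level the median distance was shorter for chosen sites than for the other low sites. Closeness to methylated DNA was not particular to the chosen sites. The partly methylated sites with the same gap had a median distance of 40 bp, where a site itself at 50% or more counted as 0 bp. Their nearest other covered site within 100 bp was at most 20% methylated in tumors for 15.6%.

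**Figure D2:**
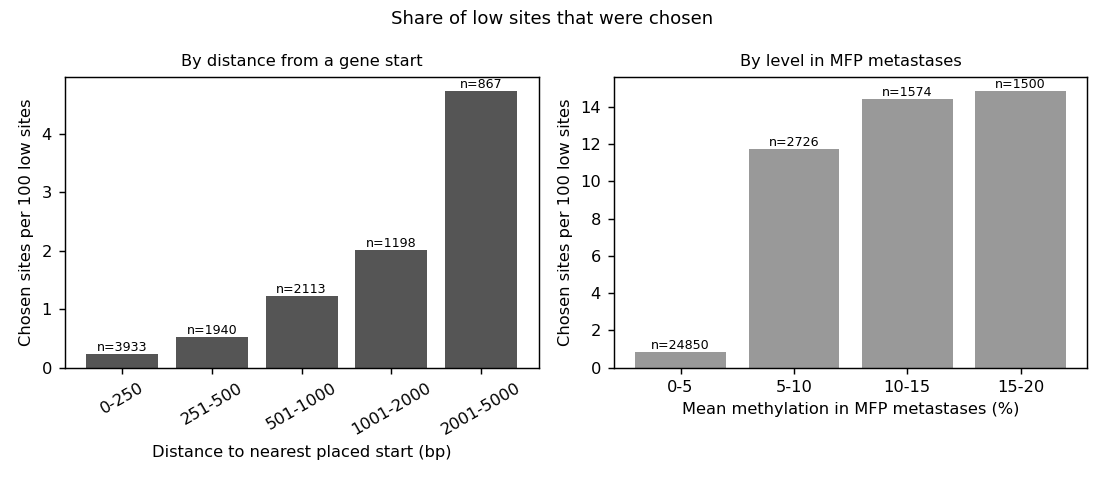
Chosen sites per 100 low sites (vertical axis) by distance in bp to the nearest placed gene start (left) and by mean methylation in MFP metastases in percent (right). Numbers above the bars are low sites. The share is 0.229 within 250 bp of a start and 4.73 at 2001 to 5000 bp, and 0.837 at 0 to 5% methylation against 14.9 at 15 to 20%.

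Near the gene starts that could be placed, low sites were chosen less often than farther away. Starts of 234 genes could be placed, and 110 of the 978 sites (11.2%) lay within 5000 bp of 51 of them, as did 9941 of the 29672 low sites not chosen and 21496 of all 136069 sites. These counts are bounded by how few starts were placed. Low sites were chosen at 0.229 per 100 within 250 bp of a placed start, 0.515 at 251 to 500 bp, 1.23 at 501 to 1000 bp, 2.003 at 1001 to 2000 bp and 4.73 at 2001 to 5000 bp. The increase with distance also appeared within classes of starting level. At 0 to 5% in MFP metastases 0.127% of low sites within 500 bp were chosen, against 0.781% farther out, and at 10 to 15% these shares were 3.77% and 11.2%. Upstream and downstream positions were about equally frequent, with 53 and 57 sites. A nearer gene whose start could not be placed would not be seen in these distances.

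Neighboring sites that were not chosen also carried more methylation in TVI metastases. Other sites 1 to 25 bp from the nearest chosen site averaged 48.7% ± 1.53 (SD) in the 3 TVI metastases, 26.3% ± 0.428 in the 3 MFP metastases and 26.1% ± 0.111 in the 2 tumors. The share called higher in TVI than in MFP metastases by limma was 79.4% at 1 to 25 bp, 45.3% at 51 to 100 bp and 19.2% at 501 to 1000 bp, with 10.4% among all tested sites. Neighbors that were low in MFP metastases averaged 23.2% in TVI metastases against 6.65% in MFP metastases at 1 to 25 bp, and 5.76% against 3.41% at 501 to 1000 bp. For neighbors between 20% and 80%, the means at 1 to 25 bp were 69.99% in TVI metastases and 37.6% in MFP metastases. The 21 neighbors at 80% or more within 25 bp differed little, at 89.6% in TVI metastases and 88.1% in MFP metastases. Neighboring sites can share reads, so they are not independent of the chosen ones.

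**Figure D3:**
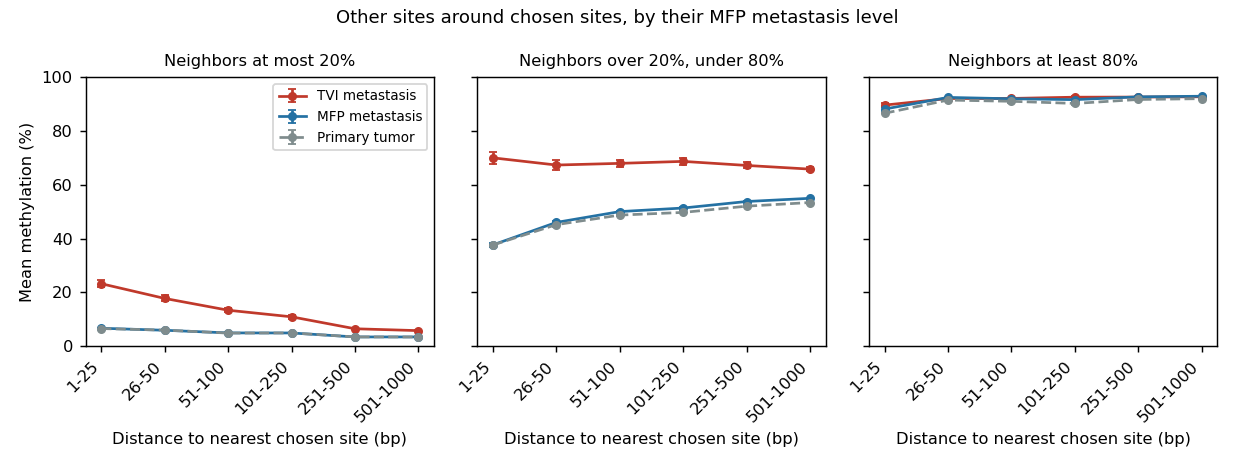
Mean methylation in percent (vertical axis) of sites that were not chosen, by distance in bp to the nearest chosen site (horizontal axis), for neighbors at most 20%, between 20% and 80%, and at least 80% in MFP metastases. Points are means of sample means and bars are SD (TVI n = 3, MFP n = 3, tumors n = 2). Low neighbors are at 23.2% in TVI metastases at 1 to 25 bp and 5.76% at 501 to 1000 bp, while MFP metastases and tumors lie close together.

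Part of the chosen sites occurred in runs. Joined at 500 bp or less they formed 620 runs, of which 462 were single sites, 84 were pairs and 74 held 3 or more sites. The last group held 348 sites (35.6%). The run with most sites lay on chromosome 2 from 26357184 to 26357636, where all 15 covered sites were chosen. Its means were 51.8%, 58.5% and 56.9% in TVI metastases, 7.29%, 5.26% and 8.49% in MFP metastases, and 9.13% and 10.96% in tumors. The nearest placed start, that of 0610009E02Rik, was 55.7 kb away, and RefSeq's gene order places Sec16a and Notch1 on either side of that gene. No start of Notch1 could be placed, so whether the run lay in or near Notch1 was not seen. Sec16a acts in export from the endoplasmic reticulum and Notch1 is a Notch receptor. Within 1500 bp of the centre of the run, 53 of the 69 other covered sites were low and 10 were at least 80% in MFP metastases.

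On chromosome 8, 13 chosen sites from 126172901 to 126173259 began 708 bp past the start of Gm35930. Their means were 44.0%, 59.97% and 51.3% in TVI metastases, 4.205%, 3.43% and 4.18% in MFP metastases, and 3.56% and 3.36% in tumors. The TVI replicates spread widely, while the other samples lay close together. A run of 12 on chromosome 5 spanned 136 bp from 141082912 to 141083047 and held the site with the widest gap. It averaged 75.8% ± 3.66 (SD) in the 3 TVI metastases, 8.94% ± 1.35 in the 3 MFP metastases and 12% ± 1.94 in the 2 tumors. It lay at the edge between stretches of high and low methylation in MFP metastases, with 39 of the 88 other sites around it at 80% or more and 48 low. In a further run of 12, on chromosome 11 from 112642218 to 112642567, TVI metastases had 31.5%, 48.0% and 45.6%, MFP metastases had 0.908%, 1.30% and 1.29%, and tumors had 0.979% and 2.001%. All 58 other covered sites within 1500 bp were low in MFP metastases, but coverage began near the first chosen site, so the other side of this run was not seen.

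**Figure D4:**
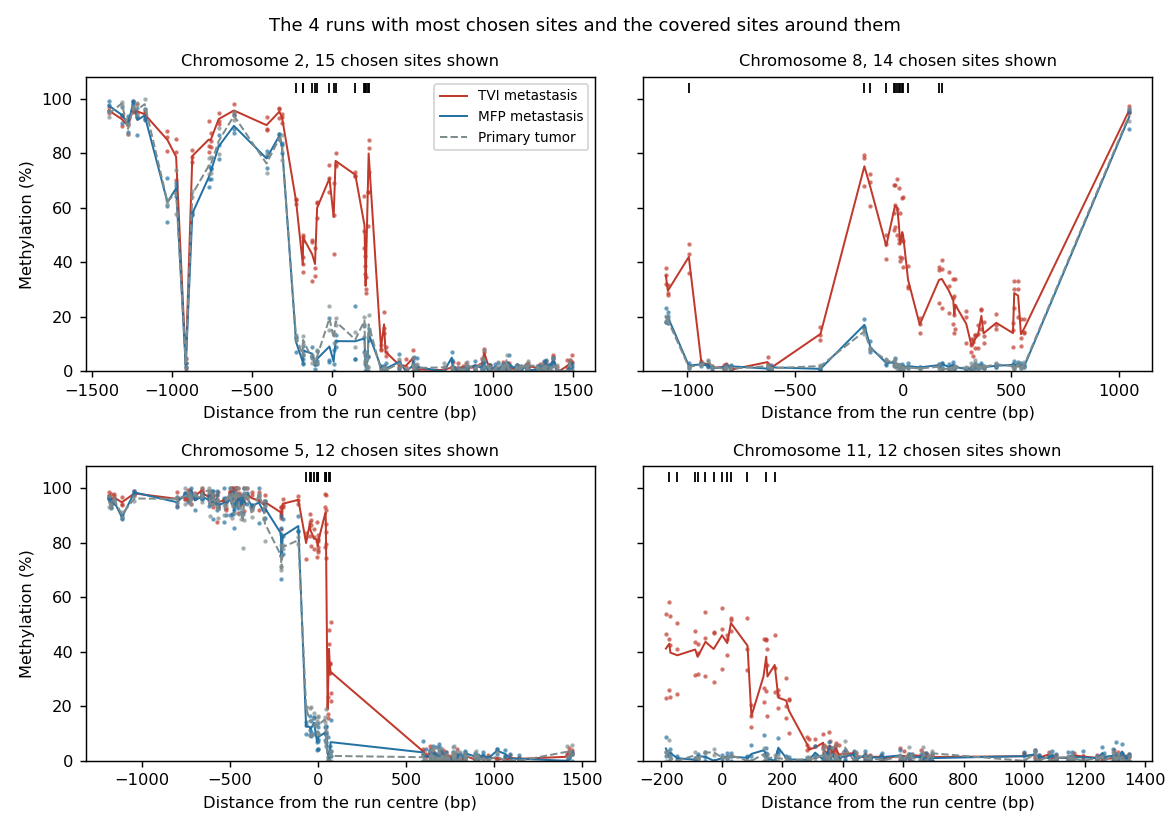
Methylation in percent (vertical axis) at covered sites within 1500 bp of the centre of the 4 runs with most chosen sites, by distance in bp (horizontal axis). Lines join group means, points are samples and ticks on top mark chosen sites. The TVI line leaves the other lines at the chosen sites, where the run means are 55.7% on chromosome 2, 51.8% on chromosome 8, 75.8% on chromosome 5 and 41.7% on chromosome 11.

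Among the other runs, 10 sites on chromosome 6 from 125272850 to 125273538 averaged 38.0% in TVI metastases, 4.47% in MFP metastases and 4.53% in tumors. The run of 9 on chromosome 2 from 119140355 to 119140941 lay at -10.6 kb from the nearest placed start. That start belonged to Dll4, which encodes a ligand of Notch receptors. The means of the run were 56.2%, 66.3% and 58.1% in TVI metastases, 12.8%, 9.82% and 10.3% in MFP metastases, and 17.3% and 16.2% in tumors. Both tumors lay above the MFP metastases there. A pair of runs of 8 on chromosome 11, from 7032420 and from 6959529, averaged 61.0% and 57.0% in TVI metastases, 9.13% and 6.96% in MFP metastases, and 8.12% and 7.71% in tumors.

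Fzd1 was the gene with the most chosen sites inside its promoter window. It had 6 chosen sites at -377 to -8 bp, averaging 37.5% in TVI metastases, 4.62% in MFP metastases and 4.31% in tumors. At -8 bp, base 242 of the printed window, methylation was 24.3%, 36.7% and 27.1% in TVI metastases, 1.92%, 2.33% and 3.704% in MFP metastases, and 2.56% and 2.04% in tumors. The site at -23 bp had 29.2%, 52.8% and 32.7% in TVI metastases, 0%, 2.08% and 5.08% in MFP metastases, and 0% and 1.82% in tumors. TVI replicate 2 was the highest sample at both sites. TVI metastases lay above all other samples there, which the rule had fixed for MFP metastases. The values of MFP metastases and tumors overlapped at both sites. Farther upstream, the site at -213 bp had 22.9%, 25.5% and 22.7% in TVI metastases, against 1.25%, 1.27% and 0.535% in MFP metastases and 4.05% and 0.637% in tumors. All 6 were higher in TVI metastases than in tumors, with limma adjusted p from 5.69e-06 at -377 bp to 0.000443 at -23 bp. Their TVI values had been chosen as high, so this is a description. Covered CpGs of the window that were not chosen were higher as well, for example 33.9% ± 7.20 (SD) in the 3 TVI metastases at -52 bp, against 5.04% ± 3.04 in the 3 MFP metastases and 8.93% ± 0.431 in the 2 tumors. Farther out methylation was high in all groups, with 94.3% in TVI metastases, 81.5% in MFP metastases and 78.5% in tumors at -595 bp.

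**Figure D5:**
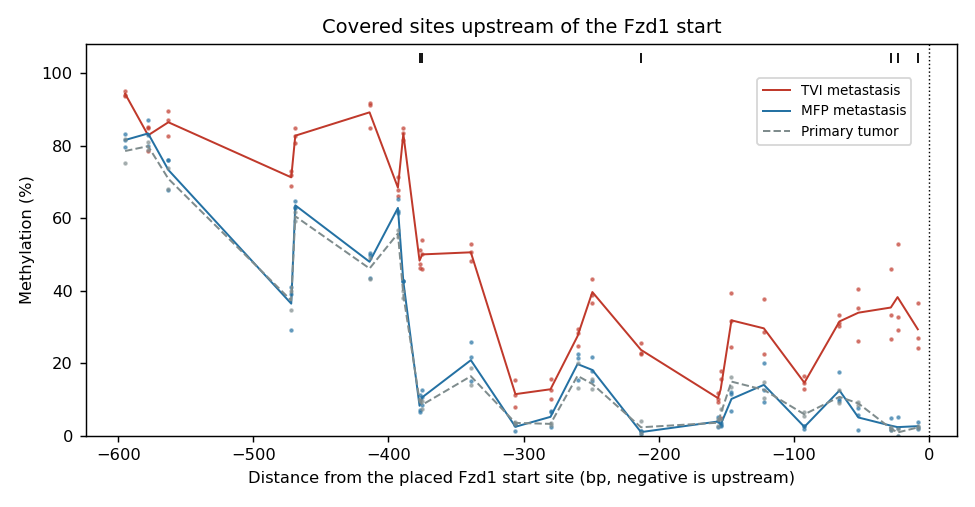
Methylation in percent (vertical axis) at covered sites upstream of the placed Fzd1 start, by distance in bp (horizontal axis, negative upstream). Lines are group means, points are samples, ticks on top mark the 6 chosen sites and the dotted line is the start. TVI metastases lie above the other groups from -563 bp to -8 bp, and the groups meet at -578 bp, at 82.8%, 83.3% and 79.8% in TVI metastases, MFP metastases and tumors.

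Several genes of cell junctions, the cytoskeleton and receptors had chosen sites near their starts. The genes are grouped here by their known roles, and no enrichment was tested. Tjp3 had 5, from -506 to 3350 bp, and the one in its window at -37 bp had 49.1%, 63.2% and 60% in TVI metastases, 18.4%, 10.3% and 11.5% in MFP metastases, and 17.5% and 5.56% in tumors. That window also held methylated sites, with means at -161 bp of 87.1% in TVI metastases, 52.8% in MFP metastases and 52.4% in tumors. Rhof, which encodes a small GTPase that promotes filopodia, had 7 from 1614 to 3146 bp, averaging 54.6% in TVI metastases, 12.5% in MFP metastases and 15.9% in tumors. The highest of these, at 1614 bp, had 71.6%, 84.7% and 77.8% in TVI metastases, 18.8%, 12.4% and 13.0% in MFP metastases, and 20% and 32.4% in tumors. Both tumors were above all 3 MFP metastases at that site. The tight junction genes Cldn14 and Cldn6 had 2 and 1 chosen sites, averaging 46.9% and 47.3% in TVI metastases, 11.1% and 10.01% in MFP metastases, and 13.2% and 9.55% in tumors. Ezr, whose product ezrin links the membrane to actin, had 1 at -1316 bp, with 58.5% in TVI metastases, 19.2% in MFP metastases and 14.96% in tumors.

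Tbxa2r, the thromboxane A2 receptor gene, had the highest mean TVI level of the 51 genes, with chosen sites at 54 and 597 bp past its start. These were isolated low sites, as only 4 of the 94 covered sites within 5000 bp of the start were low. The 9 covered sites of its promoter window were methylated in all groups. The least methylated, at -16 bp, averaged 87.0% in TVI metastases, 67.0% in MFP metastases and 52.0% in tumors. At 54 bp methylation was 83.1%, 80.8% and 83.8% in TVI metastases, 17.1%, 25% and 16.2% in MFP metastases, and 11.8% and 44.7% in tumors. At 597 bp it was 74.1%, 83.0% and 84.3% in TVI metastases, 10.96%, 2.04% and 10% in MFP metastases, and 16.9% and 10.5% in tumors. The tumors differed widely at the first site and little at the second. The sites exceeded the tumors by 54.3 points (SE 7.56, limma adjusted p = 0.000419) and 66.7 points (SE 4.35, limma adjusted p = 5.66e-06), with TVI values that had been chosen as high.

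Genes of signaling and metabolism were also represented. Ddit4, which encodes an inhibitor of mTORC1 signaling, had 3 chosen sites from -2068 to -2038 bp, and the site at -2038 bp had 45.7%, 49.7% and 52.5% in TVI metastases, 2.94%, 4.35% and 5.77% in MFP metastases, and 4.94% and 1.28% in tumors. Srebf1, encoding a transcription factor of lipid synthesis, had 3 from -2549 to -2427 bp, averaging 45.1% in TVI metastases, 10.7% in MFP metastases and 14.9% in tumors. Creb3l3, encoding a transcription factor of the endoplasmic reticulum membrane, had 2 at -2648 and -2624 bp, averaging 67.6% in TVI metastases, 11.04% in MFP metastases and 11.3% in tumors. Map2k7, a kinase gene of the JNK pathway, had 2 at -4711 and -2649 bp, averaging 64.8% in TVI metastases, 11.9% in MFP metastases and 13.0% in tumors. At Tyk2, a Janus kinase gene, 3 sites from -2095 to -2042 bp averaged 51.3% in TVI metastases, 18.6% in MFP metastases and 21.2% in tumors. Pi4k2a, a phosphatidylinositol kinase gene, had 1 at -705 bp, with 48.4%, 60.4% and 55% in TVI metastases, 8.62%, 0% and 0% in MFP metastases, and 0% in both tumors. That site was listed at 0 in 4 of the 5 samples outside the TVI group.

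Socs1 and Rela, genes of inflammatory signaling, had a single site each. Socs1, which encodes a feedback inhibitor of cytokine receptors, had 1 at -1878 bp, with 37.0%, 41.5% and 42.1% in TVI metastases, 10.3%, 13.6% and 12.5% in MFP metastases, and 6.62% and 12.7% in tumors. Rela, encoding the p65 subunit of NF-kappaB, had 1 at -364 bp, with 43.1%, 40.1% and 40.5% in TVI metastases, 10.4%, 18.9% and 16.0% in MFP metastases, and 11.6% and 10.6% in tumors. The 3 TVI metastases were close to each other at both sites and above the 5 other samples. Of 56 genes in 10 lists of pathways, methylation enzymes and cell type markers, 0 had a start that could be placed, so no count over those lists is given and the cell types in the samples could not be checked by marker promoters.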

How the data were processed

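Bisulfite sequencing data of 8 samples, grouped by the titles in the labels, were used. The authors deposited a table of beta values, each the fraction of methylated calls at a site (0 to 1, per the file headers). They are printed here as percent. Tools named in the submitters' processing notes are Trimmomatic and Bismark, with mm10 as the build. Their versions and settings, and any coverage filter, are not given in the sources. Counts per site are not used here, so depth is unknown and no interval was computed. The sites, the lists and the rule for the sites named were chosen with earlier results of these data known.

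The sites were found by the rule on the fractions as deposited. For tests, limma 3.58.1 in R 4.3.3 was fitted to percentages with 1 mean per group over all 8 samples, a variance trend, two-sided tests and Benjamini-Hochberg adjustment over the 135914 sites with any variation, at a threshold of 0.05. The fits and the placement of gene starts were tested on simulated data.

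The deposited positions were not those of GRCm38: on chromosome 7, 557 of them were higher than the end of the last gene (145324059), and no annotation of their build was used. RefSeq promoter windows of GRCm38.p6 were instead placed by the spacing of their CpGs alone. A placement needed at least 6 covered sites, an explanation of every covered site in the window and a lead of 2 matched sites over any other place. Of 18541 windows searched, 258 were placed, with a median of 13.5 matched sites, all 258 on the chromosome RefSeq gives, which the search had not used. Gene context had first been planned only for an annotation of the same build. Distances are in deposited coordinates, and RefSeq's gene order was used only for neighbors. Named are the 12 sites with the widest gap (at most 1 per run), the 8 runs with most sites, the 3 sites on either side of the threshold and the 5 with the highest tumor mean, described in full or in part. The genes named from the placed starts, and the single site not called against the tumors, were chosen after their values were seen.

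Alternatives were other thresholds of the rule, quantile normalization, a logit scale, no variance trend, a fit of the compared groups alone, a filter on range, the replicate number as a block, leaving out each sample, and other distances.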

Additional observations from a re-analysis of the deposited data

How the results depend on the processing

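The number of sites found depended on the rule, with 2008 at a gap of 10 points, 510 at 30 points, 529 with an MFP mean of at most 10% and 1532 with at most 30%. It was 716 after quantile normalization, all among the 978, and 1024 to 1221 when 1 metastasis was left out. For TVI metastases against primary tumors, the calls among the 978 sites ranged from 970 to 978 over all alternatives. Over all tested sites the alternatives called 10073 to 16691 higher and 4868 to 9688 lower. For MFP metastases against tumors, limma called 1 site after quantile normalization and 2 without a variance trend. It called 4 with a range of at least 5 points and 0 in every other alternative. Each called site was lower in MFP metastases, and the cause was not tested. Over all tested sites there were 21 higher and 7 lower calls after quantile normalization. There were 137 and 18 without the trend, and 472 and 54 with the range filter. The median tumor level was 9.88% without tumor replicate 2, 10.1% without replicate 1 and 11.6% after quantile normalization. The median number of other sites nearby was 2 within 100 bp and 12 within 500 bp, and joining at 250 and 1000 bp gave 674 and 550 runs, as those definitions imply.

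Same-numbered samples did not deviate together (correlations of -0.00370 to 0.0172 across sites). This cannot tell whether such samples came from the same animal. With 2 tumors, the correlations of a sample with them are equal and opposite by construction. With the replicate block, limma called 978 sites for TVI against MFP metastases, 976 for TVI metastases against tumors and 0 for MFP metastases against tumors. Over all tested sites it called 13365 higher and 8579 lower, 13339 and 6289, and 0 and 0 in these comparisons. Unknown depth limits how precisely single sites near the thresholds can be placed.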

Other observations

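The 978 sites were spread unevenly over the chromosomes. Chromosome 11 held 206, chromosomes 2 and 8 held 134 each and chromosome 5 held 121, while chromosomes 18 and X held 0 of 213 and 26 low sites. Per 100 low sites the number was 4.87 on chromosome 8, 4.84 on chromosome 1 and 3.85 on chromosome 11, against 1.04 on chromosome 4.

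Grouped into regions of 3 or more neighboring covered sites, 447 of 3083 regions (14.5%) held at least 1 of the sites, and 326 of the 447 also held a partly methylated site with the same gap. In 125 of the 447 (28.0%) there was also a site that was at least 20 points lower in TVI metastases, against 462 of the 2636 other regions (17.5%). Regions with a chosen site had a median of 50 covered sites and the others 28, and the part of region size in this difference was not tested. The 10 regions with most chosen sites held 126 of them (12.9%).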
